A study of Mus musculus with 93 samples.

Results

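The step from dividing progenitor to young olfactory neuron was described from 20 single-cell libraries, 11 labelled Progenitor and 9 labelled Precursor, of the 85 cells in the series. Each library held the poly(A) RNA of 1 cell picked by hand from dissociated mouse olfactory epithelium of the C57BL/6 strain, amplified as cDNA by PCR and sequenced. Members were all cells whose stage label was Progenitor or Precursor. Both groups share strain, tissue and protocol, no label gives an age, treatment or genotype, and no label names an animal. Each stage therefore counted as 1 sample: no test between stages was made, and every SD is a spread over cells, which may be technical in part. The labels do not say how stages were set, and the transcriptomes themselves may have served for it, so the marker genes below are no independent evidence of the stages.

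The olfactory epithelium makes sensory neurons throughout life. Its globose basal cells divide and express Sox2. Their daughters pass through a stage marked by Neurod1, leave the cell cycle and build a neuronal cytoskeleton, with the tubulin isotype Tubb3 and later the growth cone protein Gap43. Odorant receptors and the mature marker Omp follow afterwards.

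Values are FPKM (fragments scaled to transcript length and to the mapped fragments of the library). A difference is the mean of log2(FPKM + 1) over Precursor cells minus that over Progenitor cells, a scale that understates changes of low genes. An FPKM of 1 or more counted as detection. Compared, and called measured below, were the 4321 genes with detection in 50% or more of the Progenitor cells or of the Precursor cells. A gene was counted as different at a difference of at least 2 in size, 4-fold on this scale.

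Libraries stood apart in 2 ways. Cell numbers fall into ranges that the labels do not explain: D168 to D205 held 8 Progenitor and 3 Precursor cells, D316 to D434 held 3 and 5, and the Precursor cell D242 stood alone between them. The latter ranges share no cell, so each difference was also taken within them. In addition, 9 libraries, the 8 Progenitor cells of D168 to D205 and the Precursor cell D179, held S100a9, a neutrophil gene, at an FPKM of 174.1 to 352, against 0 in the other 11 cells. A set of 17 genes, most of them neutrophil genes such as S100a8, Camp, Ngp and Ltf, was at 1 or higher in each of the 9 and below 1 in the other 11. The same libraries held low values of other genes, for example Krt18 at 1.13 to 2.75 in 7 of them, which raises counts of detected cells, so counts at an FPKM of at least 10 are given for the main genes. Lists of interest are given with and without these libraries, over the same measured members unless stated otherwise. The 3 Progenitor cells that remain are those of D316 to D434, so values without the 9 libraries are no check separate from that range. Within D168 to D205, the 9 libraries hold all Progenitor cells but only D179 of the Precursor cells, so stage and these transcripts largely coincide there. The rule for measured genes was also applied to the remaining 3 Progenitor and 8 Precursor cells. The median difference of the 5269 genes measured in this way was -0.38. List values without the 9 libraries mostly keep the members measured in all cells, so this median is no like-for-like baseline for them. With the rule applied anew to the lists too, medians were -1.47 for mitosis and -1.96 for replication genes. They were 0.05 for progenitor factors, 0.79 for precursor factors, 0.62 for neuronal tubulin and microtubule genes and 0.64 for growth cone genes. Between 3189 and 5740 genes were detected per cell, with medians of 4788 in Progenitor and 3876 in Precursor cells. Within D168 to D205 these medians were 4516 and 4720, and within D316 to D434 they were 5031 and 3634. Whether this bears on the numbers of higher and lower genes was not tested. Mitochondrial transcripts took 25.4% to 78.6% of the FPKM sum. An FPKM of 1 over 1 kb was worth 1.34 to 9.0 fragments, read from steps between low values (medians 6.13 for Progenitor, 6.85 for Precursor cells). Shares of cells carry exact Clopper-Pearson 95% intervals, which cover counting error only.

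Across the genome, 201 of the 4321 genes were at least 2 higher in Precursor cells (4.65%) and 236 at least 2 lower (5.46%), with a median difference over all measured genes of -0.03 (0.26 within D168 to D205 and -0.11 within D316 to D434). Within D168 to D205, 1000 genes were at least 2 apart, 643 of them higher (14.9% of measured genes) and the rest lower (8.26%). Within D316 to D434, 951 were, 573 of them lower (13.3%) and the rest higher (8.75%). The latter counts leaned on single cells, here with the rule for measured genes applied anew. Leaving out the Progenitor cell D337 gave 934 lower of 4776 genes (19.6%). Leaving out the Precursor cell D383 gave 573 higher of 4761 genes. Without the Progenitor cell D330 there were 557 higher of 4631, and without D393 550 of 4625. Of the 201 genes higher in all cells, 181 (90.05%) were also above 0 within D316 to D434 and 99 (49.3%) were at least 2 higher there. Of the 236 lower genes, 220 (93.2%) were below 0 there and 139 (58.9%) were at least 2 lower. These 8 cells are part of the 20, so the shares are not a separate repeat. The separate ranges were less alike: across genes, their differences had a Pearson r of 0.13 and a Spearman rho of 0.14 (a description, since genes are not replicates), and 54.5% of genes had the same sign. At least 2 higher in each range were 82 genes (1.9%), which is 12.8% of those higher in D168 to D205 and 21.7% of those higher in D316 to D434. At least 2 lower in each were 78 genes (1.81%), or 21.8% and 13.6% of those lower. Another 80 genes were at least 2 higher in the first range and at least 2 lower in the second, and 24 the reverse.

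**Figure D1:**
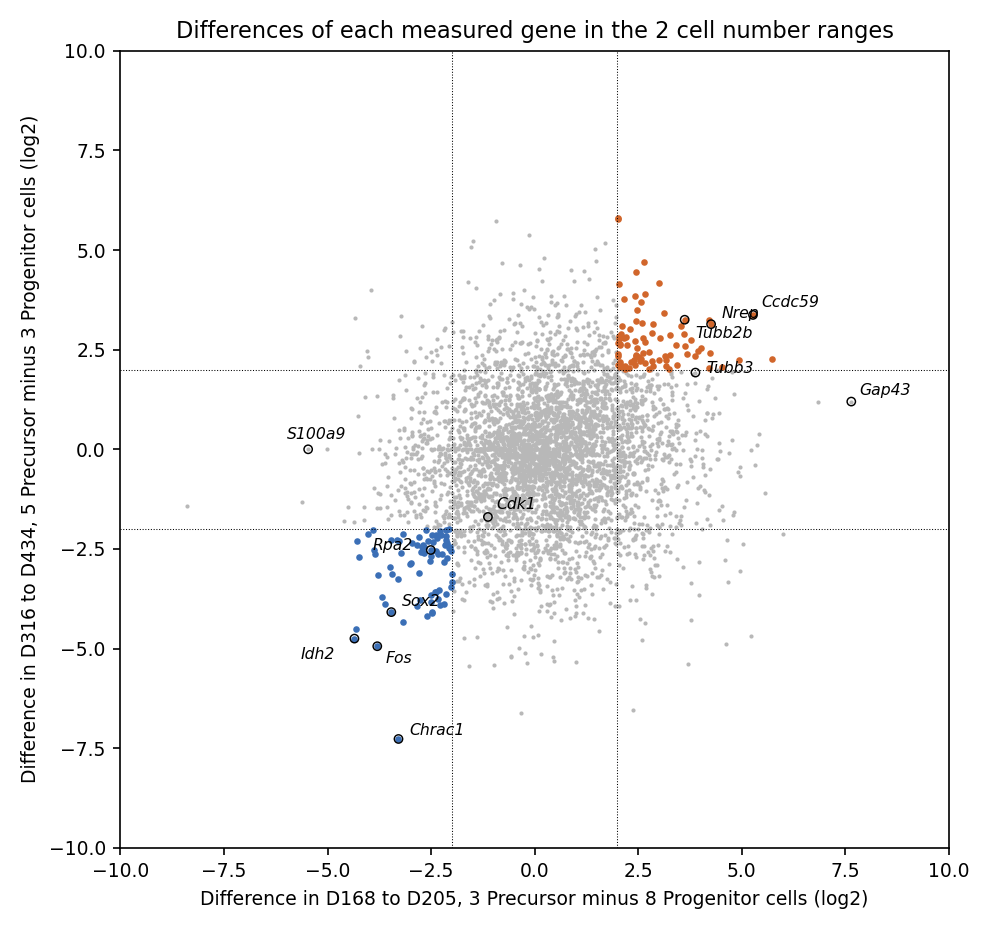
Difference of each of the 4321 measured genes within cells D168 to D205 (x axis) against cells D316 to D434 (y axis), both Precursor minus Progenitor on the log2 scale. Orange points are the 82 genes at least 2 higher in both ranges, blue points the 78 at least 2 lower in both, dotted lines mark 2 and -2, and circles mark named genes. Idh2, Fos and Chrac1 lie far into the lower left and Ccdc59 and Tubb2b into the upper right, while Gap43 reaches far to the right in the first range only and S100a9 lies at 0 in the second.

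Sox2 and Pax6, which act at the start of the lineage, were lower in Precursor cells, unlike the wider list of progenitor factors below. Sox2 (chr3:34650005-34652461, mm10), a stem cell transcription factor, had an FPKM of 0, 47.4 and 254.7 at the lowest, median and highest Progenitor cell. Precursor cells were at 0 except D195 (13.1) and D179 (1.69). Sox2 reached 10 in 8 of 11 Progenitor and 1 of 9 Precursor cells, with a difference of -4.32 and within-range values of -3.46 and -4.09. The Progenitor cells below that level were D172 (2.11), D203 (0.925) and D337 (0). In the deposited annotation Sox2 lies inside the longer gene Sox2ot on the same strand, so reads of the overlap could belong to either. Pax6, a further regulator of the olfactory placode and of basal cells, was at 10 or more in 7 of 11 Progenitor cells and in the Precursor cell D383 alone (42.2), a difference of -3.26, with -4.03 and -2.13 within the ranges.

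The list of progenitor transcription factors did not move as a whole. Of its 22 genes 15 were measured, 8 lower and 7 higher in Precursor cells, with a median of -0.34. Beside Sox2 and Pax6, the homeobox gene Meis2 was lower (-1.97), whereas Eya2 (1.57), a transcriptional coactivator of the placode, was higher. The median changed sign with the cells used, where the rule for measured genes was applied anew and members could change too. It was 0.05 without the 9 libraries with S100a9. Over leaving out each cell in turn it reached from below 0 to 0.28. It was above 0 without the Progenitor cell D189 or the Precursor cells D178, D345 or D398. Neurog1, a factor that acts before Neurod1 in this lineage, did not meet the rule for measured genes: it was at 10 or more in 2 of 11 Progenitor and 3 of 9 Precursor cells, up to 42.9 and 106. Insm1, a zinc finger factor of progenitors leaving the apical pool, stood at a mean log2(FPKM + 1) of 4.37 ± 2.22 over Progenitor (SD, n = 11 cells) and of 4.49 ± 2.30 over Precursor cells (n = 9), a difference of 0.11.

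**Figure D2:**
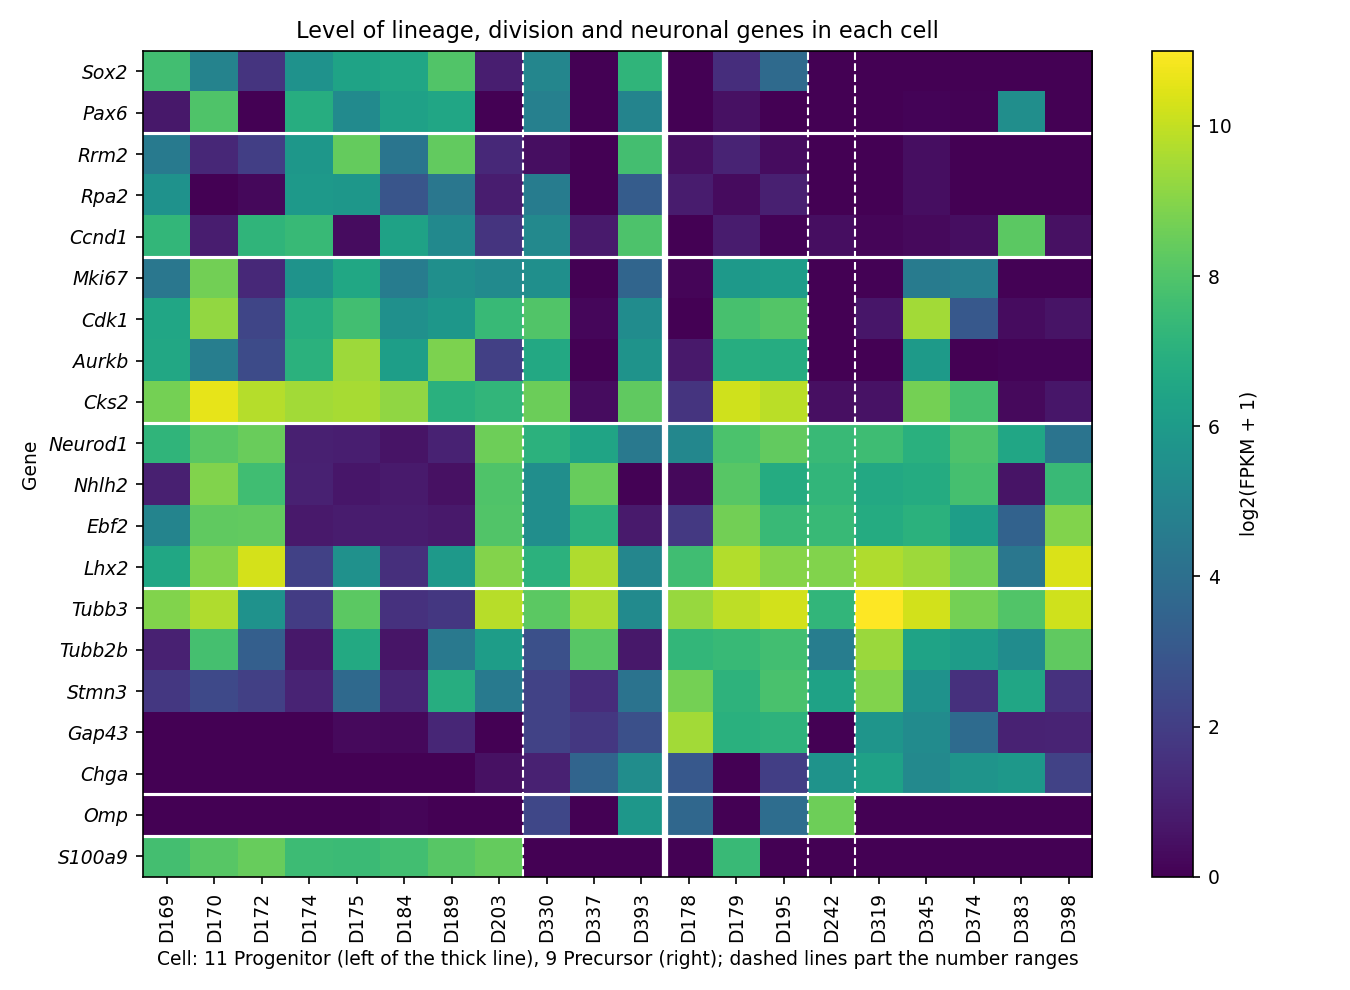
Level of 20 genes (rows) in each of the 20 cells (columns), as log2(FPKM + 1) in colour. The thick white line parts the 11 Progenitor from the 9 Precursor cells, dashed lines part the cell number ranges, and horizontal lines part lineage, replication, mitosis, precursor, neuronal, mature and neutrophil genes. Rrm2 and Rpa2 are dark in nearly all Precursor cells, the 4 mitosis genes are bright in D179, D195 and D345, and S100a9 is bright in 9 libraries.

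Neurod1 (chr2:79452521-79456751), a helix-loop-helix factor taken here as a marker of precursors, was at 10 or more in 9 of 9 Precursor cells (100%, interval 66.4 to 100), with FPKM from 17.6 over a median of 174.2 to 327. In Progenitor cells it was split. The cells D174, D175, D184 and D189 held at most 1.06, and their Sox2 was between 47.4 and 254.7. D170, D172 and D203 held 286, 356 and 381, and their Sox2 was between 0.925 and 29.5. D169, D330, D337 and D393 lay between, with Neurod1 at 145, 132, 84.6 and 20.5 and Sox2 at 200.5, 32.5, 0 and 144.9. Both genes reached 10 in the same cell in 4 of 11 Progenitor and 1 of 9 Precursor cells. The Neurod1 difference was 1.99, with 2.61 within D168 to D205 and 0.68 within D316 to D434.

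Other factors of the precursor list were likewise uneven among Progenitor cells. Of 20 genes 12 were measured, 11 of them higher in Precursor cells, with a median of 1.43 and 2 at least 2 higher (4.65% over all measured genes). Over all 20 the median was 0.60, with 14 higher and 5 lower. Within the ranges the median was 1.25 and 1.04, and without the 9 libraries with S100a9 it was 0.79, with 10 of 12 higher. Nhlh2, a helix-loop-helix gene of new neurons, stood at 194.9 to 479 in D170, D172, D203 and D337, at 41.8 in D330 and at no more than 1.01 in the other Progenitor cells. In Precursor cells it lay between 99.1 and 280 in 7 and was below 1 in D178 and D383. Ebf2, an olfactory and neuronal helix-loop-helix factor, had a median of 29.8 in Progenitor and 130 in Precursor cells (difference 2.23, within ranges 1.89 and 2.04). Lhx2, a LIM homeobox factor that sensory neurons need for odorant receptor expression, had medians of 93.2 and 514 (difference 2.13, within ranges 2.56 and 1.23), and it was detected in all 20 cells. Ebf3 (1.88) and Emx2 (1.497) differed the same way in both ranges. The levels of the stages overlapped for each of these genes.

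Several genes of DNA synthesis were found almost only in Progenitor cells, while others remained in some Precursor cells. Rrm2 (chr12:24708241-24714146), the cell cycle regulated subunit of ribonucleotide reductase, had an FPKM of 0, 18.4 and 333 at the lowest, median and highest Progenitor cell and of at most 1.16 in Precursor cells. It reached 10 in 6 of 11 Progenitor cells, in all 6 together with Mki67, and in 0 of 9 Precursor cells. Its difference was -3.74, with -3.85 and -2.62 within the ranges. Rpa2, a subunit of the single-strand binding complex at forks, was at 6.56 to 61.5 in 7 of 11 Progenitor cells and below 1 in all Precursor cells (difference -2.77, within ranges -2.51 and -2.53). Skp2, the ubiquitin ligase subunit that removes cyclin-dependent kinase inhibitors at the entry to S phase, had a highest value of 33.0 in Progenitor and of 0.0902 in Precursor cells. Gmnn, the inhibitor of repeated origin licensing, was above 1 in 9 of 11 Progenitor cells but in Precursor cells in D345 only, at 68.1 (difference -3.27).

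As lists, these genes pointed the same way with exceptions. Of 36 replication licensing and fork genes 16 were measured, 13 lower and 3 higher, with a median of -0.81 (-0.42 and -1.08 within the ranges, -1.34 without the 9 libraries), and 4 at least 2 lower (5.46% over all measured genes). With the rule for measured genes applied anew, the median was -0.51 without the Precursor cell D242. Of these 16, 8 were measured through Progenitor cells alone, a route that favours lower values. Over all 36 the median was -0.66, with 32 lower. Of 12 deoxynucleotide synthesis genes 9 were measured, 8 of them lower (median -1.11) and 4 measured through Progenitor cells alone. Over all 12 the median was -1.12, with 11 lower. Of 24 G1 to S cyclins and regulators 8 were measured and all 8 were lower (median -2.11, with -1.22 and -1.14 within the ranges), 4 of them measured through Progenitor cells alone. Over all 24 the median was -0.96, with 21 lower. Cyclin D1, Ccnd1, which drives cells from G1 into S phase, was at 10 or more in 7 of 11 Progenitor cells. In Precursor cells it was at 296 in D383 and below 1 in the other 8. D383 also held Pcna, the sliding clamp of replication, at 281, with Rrm2 at 0 and Mki67 at 0.0311. Pcna stood at 56.4 in D178 and 42.5 in D374 too. Rfc4, of the clamp loader, was at 127 in D195, 89.2 in D345 and 39.0 in D383, and Prim1, the primase subunit, at 210 in D374, 120 in D383 and 22.4 in D195. At 10 or more, D383 thus held all 3 of these genes, and D195 and D374 a pair of them each.

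Mitotic RNA was also present in part of the Precursor cells. Of 56 mitosis genes 50 were measured, 46 lower and 4 higher, with a median of -1.57 and 19 at least 2 lower (5.46% over all measured genes). Measured through Progenitor cells alone were 33 of the 50. Over all 56 genes 51 were lower and the median was -1.505. Within D316 to D434 the median was -1.26 (42 of 50 lower), and without the 9 libraries it was -1.195 (41 of 50). Within D168 to D205 it was -0.19, with 26 lower and 24 higher, since 2 of the 3 Precursor cells there, D179 and D195, held these transcripts at Progenitor levels. The mean log2(FPKM + 1) of the 50 genes was 6.87 in D179, 6.50 in D195, 6.45 in D345 and 2.88 in D374, and between 0.63 and 1.11 in the other 5 Precursor cells. In Progenitor cells it ranged from 0.85 in D337 to 7.03 in D170. The library labelled Progenitor D337 went against the markers of its stage, with Sox2 and Mki67 at 0 and Neurod1 at 84.6. D337 detected 7 of the 56 genes and the 5 low Precursor cells 5 to 11, against 25 to 55 in the other 14 cells. The Progenitor cell D172 also combined low Sox2 and Mki67 with high Neurod1, but it detected 35 of the 56 genes. The mean level of the precursor factor list was 6.14 in D172 and 5.79 in D337.

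Single mitosis genes showed the split plainly. Mki67, the proliferation marker, had FPKM of 61.1, 66.9, 22.5 and 25.9 in D179, D195, D345 and D374 and at most 0.102 in the other 5 Precursor cells. In Progenitor cells it was 0 in D337, 1.44 in D172 and 11.1 to 397 in the other 9. The difference was -2.22, with -1.16 and -1.13 within the ranges. Cks2, a small partner of cyclin-dependent kinases, was at 126 to 1531 in 10 of 11 Progenitor cells and at 0.292 in D337, and at 1180, 919, 421 and 214.7 in D179, D195, D345 and D374 against at most 2.15 in the rest. Cdk1, the mitotic kinase, reached 717 in D345, above the highest Progenitor cell at 600. Aurkb, a kinase of the chromosomal passenger complex, stood at 116, 110 and 62.7 in D179, D195 and D345 and below 1 in the other 6, a difference of -3.13 (-1.11 and -2.86 within the ranges). Spc25, of the kinetochore complex that binds microtubules, followed with 310, 116 and 113 in the same 3 cells and a difference of -3.88. These Precursor cells with mitotic RNA had Rrm2 at 1.16 in D179, 0.284 in D195, 0.320 in D345 and 0 in D374.

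Mitotic and neuronal RNA occurred in the same libraries. Mki67 and Tubb3 both reached 10 in 6 of 11 Progenitor and 4 of 9 Precursor cells, and Mki67 and Neurod1 in 5 and 4. Gap43 stood at 125, 139, 38.8 and 13.49 in D179, D195, D345 and D374. Whether such a library held RNA of more than 1 cell was not tested.

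**Figure D3:**
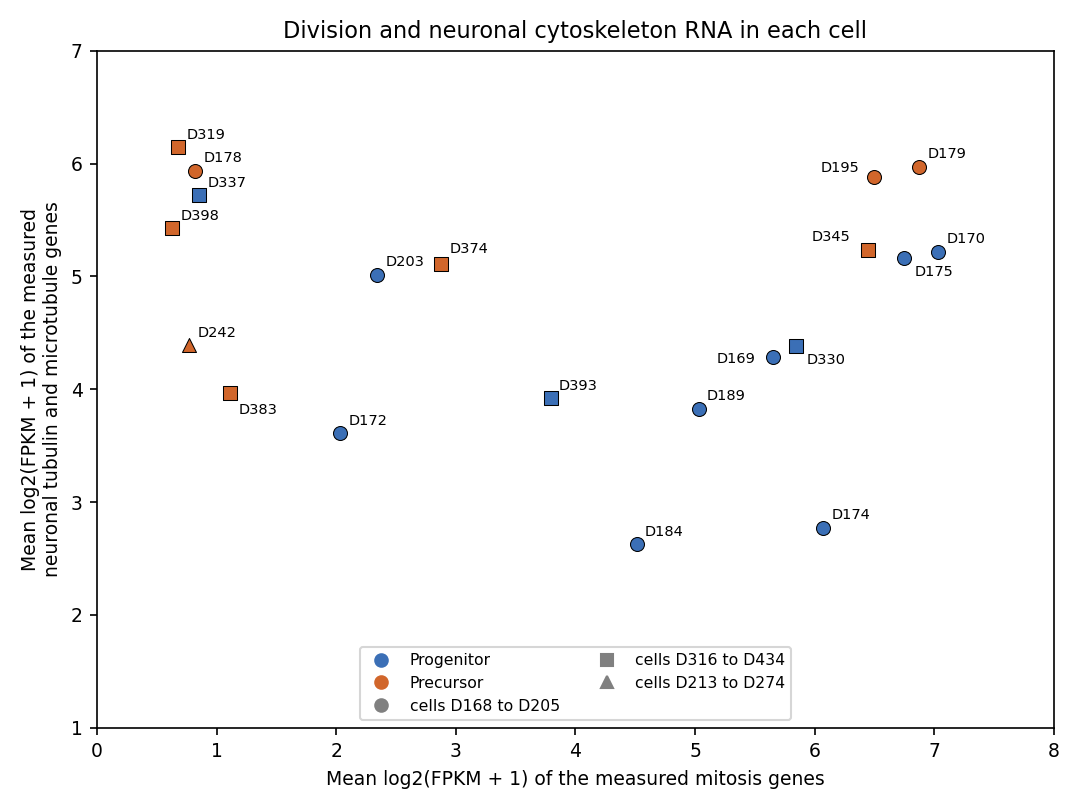
Mean log2(FPKM + 1) of the 50 measured mitosis genes (x axis) against that of the 25 measured neuronal tubulin and microtubule genes (y axis), 1 point per cell, with stage by colour and cell number range by shape. The Precursor cells D179, D195 and D345 sit at the right with the dividing Progenitor cells, the other Precursor cells but D374 at the far left, and the Progenitor cell D337 among them.

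Promoters of the mitosis and replication genes were searched for the letters of cell cycle motifs. The CHR (cell cycle genes homology region), through which the DREAM and MYB-MuvB complexes act, was searched as TTTGAA, with its variant TTCGAA counted too, on both strands. It occurred in 38 of 48 mitosis genes with a RefSeq promoter (79.2%), against 21.7% of 27025 genes with promoters of the same length (300 bases), 16.97% of the 3165 measured genes among these and 25.0% of 28 replication genes. CCAAT, bound by NF-Y, was common in both lists, in 75.0% of the mitosis and 67.9% of the replication genes, against 41.1% of all and 44.99% of measured genes. E2F factors bind near the start of replication genes. Their form TTTCCCGC was searched on both strands together with the variants TTTGGCGC, TTTGCCGC and TTTCGCGC, and at least 1 of them was in 12 of the 28 replication genes (42.9%), in 6.25% of the mitosis genes, in 2.60% of all genes and in 5.31% of measured genes. Matches are letters, not shown sites, and E2F forms on opposite strands can overlap each other. Top2a, the decatenating topoisomerase, Cdk1 and Mki67 are shown because their promoters carry both CHR and CCAAT, as the 200 bases before the RefSeq start, written 5′ to 3′ on the strand of the gene, with CHR, CCAAT and E2F matches of either strand in capitals. They lie on build GRCm38.p6 at chr11:99024190-99024389, chr10:69352913-69353112 and chr7:135716380-135716579, all on the minus strand.
Top2a: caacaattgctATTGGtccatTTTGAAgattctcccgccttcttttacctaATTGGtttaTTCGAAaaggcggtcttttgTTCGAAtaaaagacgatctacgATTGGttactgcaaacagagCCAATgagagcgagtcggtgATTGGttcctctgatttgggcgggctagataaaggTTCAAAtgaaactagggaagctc
Cdk1: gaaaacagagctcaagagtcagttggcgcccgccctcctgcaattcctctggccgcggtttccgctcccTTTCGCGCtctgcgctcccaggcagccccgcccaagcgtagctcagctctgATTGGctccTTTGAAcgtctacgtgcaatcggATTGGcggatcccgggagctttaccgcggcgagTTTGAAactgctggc
Mki67: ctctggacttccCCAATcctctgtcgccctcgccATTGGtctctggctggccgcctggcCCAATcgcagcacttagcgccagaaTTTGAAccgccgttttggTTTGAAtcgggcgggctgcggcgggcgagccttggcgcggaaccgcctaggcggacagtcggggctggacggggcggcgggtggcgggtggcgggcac

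In these windows Top2a holds 4 CHR matches. Those of Cdk1 start 71 and 15 bases before the gene's start and those of Mki67 116 and 98 before, and Cdk1 also holds an E2F form 131 bases before. Top2a differed by -2.47 (-1.03 and -1.80 within the ranges) and reached 10 in 9 of 11 Progenitor and 4 of 9 Precursor cells, the same counts as Mki67. No transcription factor binding was measured here.

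Neuronal cytoskeleton genes were mostly higher in Precursor cells. Of 39 neuronal tubulin and microtubule genes 25 were measured, 19 higher and 6 lower in Precursor cells, with a median of 1.23, 8 at least 2 higher (4.65% over all measured genes) and 1 at least 2 lower (5.46%). In D316 to D434 the same counts of 19 and 6 held with a median of 0.43, in D168 to D205 the median was 1.48, and without the 9 libraries 0.62. Over all 39 genes 30 were higher and the median was 0.63. Tubb3 (chr8:123411424-123422015), the neuronal beta tubulin, had an FPKM of 1.99, 296 and 909 at the lowest, median and highest Progenitor cell and of 151, 962 and 2276 in Precursor cells. It was at no more than 2.84 in D174, D184 and D189, cells with Neurod1 at no more than 1.06. The other Progenitor cells held 37.8 or more, D175 among them, although its Neurod1 was also no more than 1.06. Its difference was 3.01, with 3.88 and 1.92 within the ranges. Tubb2b, a beta tubulin of migrating and growing neurons, had medians of 9.16 and 156, a difference of 3.11 (3.62 and 3.25), and 24.4 or more in each Precursor cell. Stmn3, a stathmin that binds tubulin dimers, had medians of 3.44 and 90.3 (difference 3.16), although D374 and D398 held only 1.89 and 1.96. Dpysl5, a collapsin response mediator of axon growth, was in a narrow band of 34.8 to 126 in all 9 Precursor cells and spread from 0.0859 to 114 in Progenitor cells (SD of log2(FPKM + 1) 0.67 against 2.92). Mllt11, which is abundant in growing neurons, was detected in 2 of 11 and 7 of 9 cells (difference 3.18).

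Not all tubulins were higher. Tuba1b, an alpha tubulin of dividing cells, was lower by its difference of -2.56 (-1.45 and -2.30 within the ranges), with medians of 238 and 54.3. Tuba1c differed by -1.66, but by 0.31 within D168 to D205, while Tuba1a, the main alpha tubulin of new neurons, differed by 1.23. Tubb5 differed by -0.10. Alpha tubulin genes are near-identical in sequence, so reads could be shared between them.

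Some growth cone and secretory genes were higher in Precursor cells, but not in every cell. Gap43 (chr16:42248442-42340651), a membrane protein of growth cones, was at most 5.48 in Progenitor cells, at 10 or more in 0 of 11, and ranged in Precursor cells from 0 in D242 over a median of 38.8 to 706 in D178, with 10 or more in 6 of 9. Its difference was 3.76, with 7.65 within D168 to D205 and 1.197 within D316 to D434, where D383 and D398 held 1.10 and 1.15. Ncam1, a neural cell adhesion molecule, was below 1 in all 11 Progenitor cells (0%, interval 0 to 28.5) and detected in 6 of 9 Precursor cells at up to 24.1. Gnao1, the G protein subunit abundant in growth cones, had medians of 0.236 and 15.6 (difference 2.40). Of 40 growth cone and guidance genes 11 were measured, 8 higher and 3 lower, with a median of 1.13 (1.11 and 0.55 within the ranges, 0.85 without the 9 libraries), and 5 of the 11 were measured through Precursor cells alone. Within D316 to D434 6 were higher and 5 lower, and over all 40 genes the median was 0.24, with 26 higher and 13 lower. The median also rested on single cells: with the rule for measured genes applied anew it was 0.54 without the Precursor cell D195, 0.62 without D319, and 0.73, 0.70 and 0.72 without the Progenitor cells D172, D174 and D184. Robo1, a receptor for Slit guidance cues, differed by -1.25. Dcx, the doublecortin of migrating neurons, did not meet the rule for measured genes and reached 10 in 3 of 11 and 2 of 9 cells.

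Among 30 vesicle release and neurosecretory genes 11 were measured, 10 higher and 1 lower, with a median of 1.72 (1.70 and 0.54 within the ranges, 0.71 without the 9 libraries), and 7 of the 11 were measured through Precursor cells alone. Over all 30 the median was 0.27, with 21 higher and 8 lower. Scg5, a chaperone of prohormone convertase, had medians of 0.676 and 68.1 and was detected in all 9 Precursor cells (difference 3.70, within ranges 1.70 and 5.17). Chga, the granule protein chromogranin A, was at 10 or more in D337 and D393 of the Progenitor cells and was detected in 8 of 9 Precursor cells at 3.12 to 78.6 (difference 3.05, within ranges 1.63 and 1.74). Omp, the marker of mature neurons, was at 10 or more in the Progenitor cell D393 (56.2) and the Precursor cells D178 (11.7), D195 (14.2) and D242 (378.5).

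RNA-binding proteins of splicing differed in opposite directions. Ptbp1, the splicing repressor of non-neuronal cells, had medians of 53.3 in Progenitor and 24.8 in Precursor cells (difference -1.41, within ranges -2.56 and -0.57). Ptbp2, the paralog that replaces it in young neurons, had medians of 23.9 and 69.2 (1.99, within ranges 2.84 and 1.76). Elavl3, a neuronal Hu protein that stabilises mRNA, stood at 32.1 to 74.9 in 8 of 9 Precursor cells and at 5.14 in D383, and from 0.139 to 177 in Progenitor cells (2.02). Celf2, a further splicing regulator, was above 1 in 9 of 11 Progenitor cells and in 2 of 9 Precursor cells, D178 (507) and D345 (10.51), a difference of -2.54. Of the 25 genes of this list 14 were measured, 10 higher and 4 lower, with a median of 0.45 (0.29 and 0.14 within the ranges, with 7 higher and 7 lower in D316 to D434), and of -0.09 without the 9 libraries.

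**Figure D4:**
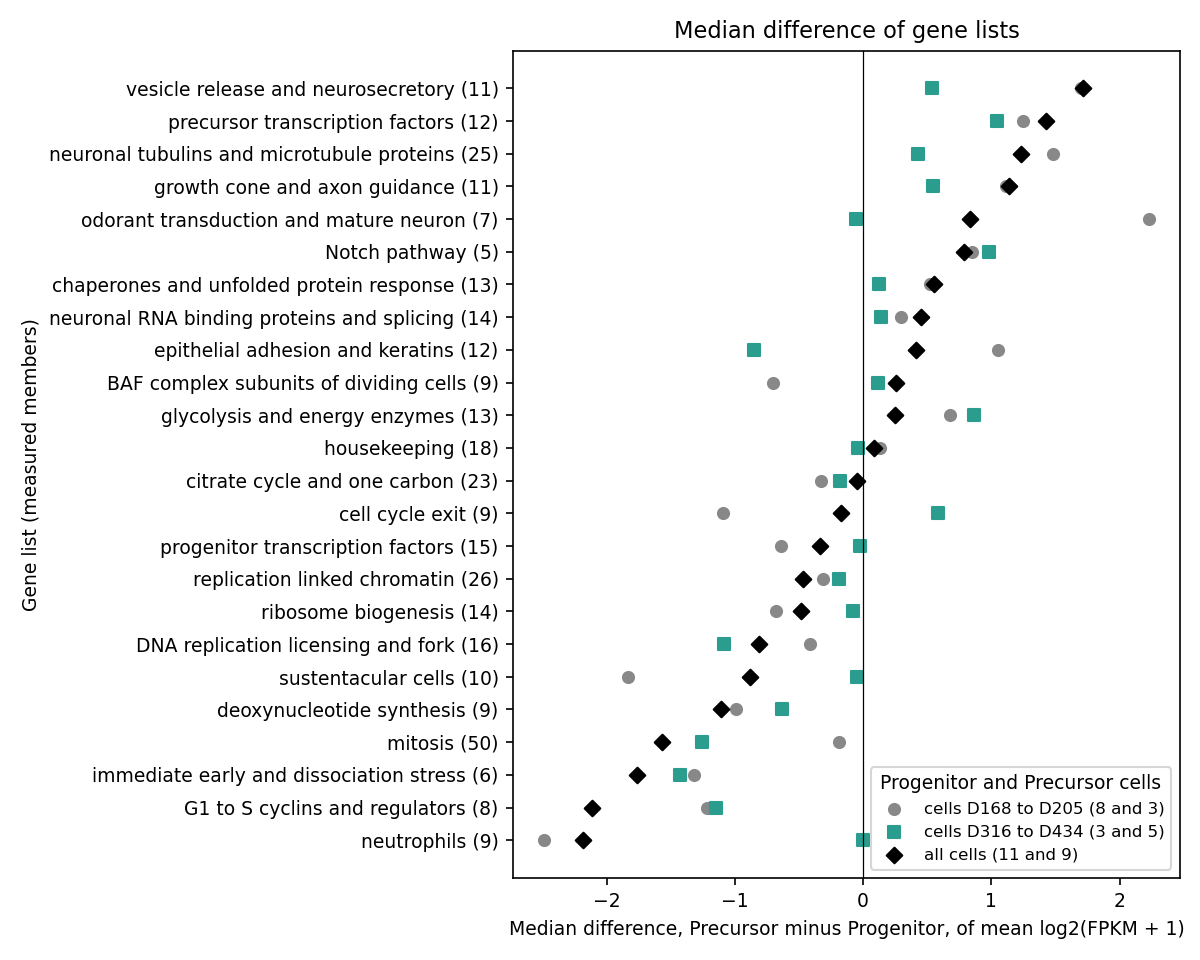
Median difference, Precursor minus Progenitor, of the measured members of each gene list with at least 5 of them (number in brackets), for all cells (black), cells D168 to D205 (gray) and cells D316 to D434 (green). Vesicle, precursor factor, tubulin and growth cone lists lie above 0 and the mitosis, replication, G1 to S and immediate early lists below 0 in all 3, whereas the neutrophil list is at 0 in D316 to D434 and the odorant transduction and epithelial lists change sign.

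Genes outside these lists that were alike in both ranges were named by the smaller of their within-range differences. Highest was Ccdc59, a nuclear protein known as a partner of the thyroid transcription factor, at 11.3 or less in all Progenitor cells and at 22.0 to 127 in 7 of 9 Precursor cells, with 3.29 in D398 and 0.216 in D374 (difference 4.34, within ranges 5.27 and 3.37). Tusc3, a subunit of oligosaccharyltransferase, differed by 3.61 (4.21 and 3.24), Nrep, a protein of neural regeneration, by 3.36 (4.26 and 3.14), and Dbnl, an actin-binding adaptor, by 3.40 (3.12 and 3.42). Emc6, of the complex that inserts membrane proteins in the endoplasmic reticulum, had medians of 2.02 and 112 (difference 3.21, within ranges 3.55 and 3.09) and stood at 73.0 or more in all Precursor cells but D374 (1.01). Nrep stood at 202.9 or more in all Precursor cells but D383 (1.37).

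Among the lowest in both ranges, beside Sox2 and Fos, were genes of repair, chromatin and mitochondrial metabolism. Chrac1, a histone-fold protein that works with chromatin remodelers and DNA polymerase epsilon, was below 1 in all 9 Precursor cells and at 54.4 to 343.5 in 7 of 11 Progenitor cells (difference -4.43, within ranges -3.29 and -7.27). Polb, the polymerase of base excision repair, had medians of 67.5 and 0.319 (-3.18, within ranges -3.69 and -3.70), with D374 (17.5) and D398 (222.5) as the high Precursor cells. Ccnh, the cyclin of the kinase that activates cyclin-dependent kinases, was at 45.4 in the Precursor cell D242 and below 1 in the other 8 (-3.24). Idh2, the mitochondrial isocitrate dehydrogenase that makes NADPH, was at 10 or more in 9 of 11 Progenitor cells and in the Precursor cell D319 alone (148), a difference of -4.06, with -4.35 and -4.75 within the ranges.

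The list of 29 citrate cycle and one-carbon genes did not move as a whole: 23 were measured, 11 higher and 12 lower, with a median of -0.04, and 4 were at least 2 lower (5.46% over all measured genes). These were Idh2, Phgdh, Psat1 and Mthfd2. Phgdh, which starts serine synthesis from a glycolytic intermediate, was above 1 in 9 of 11 Progenitor cells, up to 164, and at most 1.61 in Precursor cells (difference -3.61, within ranges -3.89 and -2.03). Psat1, the next enzyme, differed by -2.70 (-3.07 and -1.18), and Mthfd2, of mitochondrial folate metabolism, by -3.32 (-3.49 and -2.95). Shmt2, which passes the carbon of serine to folate, differed by -1.75 and the phosphatase Psph by -1.34, although Psph differed by 0.53 within D316 to D434. Glycolysis genes had a median of 0.25 (9 of 13 measured higher), and of 0.02 over all 23 (12 higher), with Pgk1, phosphoglycerate kinase, at 2.11 and the mitochondrial creatine kinase Ckmt1 at 2.92.

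Immediate early genes, which dissociation can induce, were lower for 6 of 6 measured of 24, in each range too (median -1.76, with -1.32 and -1.43 within the ranges, and -1.81 without the 9 libraries). Of the 6, 4 were measured through Progenitor cells alone, and over all 24 the median was -0.38, with 18 lower and 3 higher. Fos reached 10 in 5 of 11 Progenitor cells, up to 1402 in D189, and was at most 4.42 in Precursor cells (difference -4.51, within ranges -3.80 and -4.94). Whether handling of the cells differed was not tested.

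Markers of other cell types moved with some of these values. Of 15 neutrophil genes 9 were measured and all 9 were lower (median -2.19, with -2.49 within D168 to D205), and in D316 to D434 all 9 were at 0 difference. All 9 were measured through Progenitor cells alone, and over all 15 genes 12 were lower (median -1.32). The summed FPKM of the 15 was 0 to 806 in Progenitor and 0.0710 to 414 in Precursor cells. Of the 17 genes shared by the 9 libraries, 6 were among the 236 lower genes, which leaves 230. Of the 20 sustentacular cell genes found, 10 were measured, 8 lower (median -0.88), with -1.84 within D168 to D205, -0.05 within D316 to D434 and 0.60 without the 9 libraries. Of the 10, 8 were measured through Progenitor cells alone, and over all 20 the median was -0.42, with 15 lower. Cbr2, an abundant sustentacular gene, was at 22.4 to 478 in the 9 libraries, at 1071 in the Precursor cell D242 and at no more than 1.69 in the other 10 cells. Krt8, a keratin of epithelial and sustentacular cells, was lower in Precursor cells (-3.06, within ranges -4.60 and -1.79). Fabp7, a marker of ensheathing glia, was at 5793 in the Progenitor cell D189, at 281 in D175, at 324 in the Precursor cell D374, at 9.96 to 27.8 in the other 7 of the 9 libraries and below 1 elsewhere. Of 17 gland duct and microvillous cell genes 3 were measured, all lower (median -0.93) and all through Progenitor cells alone. The median was -1.33 within D168 to D205 and 0 within D316 to D434. Over all 17 genes 12 were lower and 1 higher, and the Progenitor cell D174 detected 8 of the 17. Horizontal basal, red blood and stromal or endothelial cell lists had no measured gene, and at most 2 of their genes were detected in any cell. The part of other cells in the differences was not tested.

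Genes higher in Precursor cells differed in the following stage. In the 27 Early Immature Neuron cells, the following stage, Neurod1 had a mean log2(FPKM + 1) of 0.63, against 4.89 ± 3.38 over Progenitor (SD, n = 11) and 6.89 ± 1.40 over Precursor cells (n = 9). Ccdc59 had means of 0.71, 5.06 and 1.88 in Progenitor, Precursor and Early Immature Neuron cells, and Scg2, secretogranin, 3.29, 5.30 and 0.33. Gap43 had 0.76, 4.51 and 7.54 and Ebf2 4.18, 6.41 and 7.55, while Tubb3 had 6.43, 9.44 and 8.62. Mki67 and Aurkb, at 2.40 and 2.29 in Precursor cells, had means of 0.06 and 0.07 in the following stage.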

How the data were processed

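Poly(A) RNA of single cells was measured. The values are FPKM per gene and cell, calculated by the authors and deposited as a table of the whole series, with the deposited annotation giving gene symbols and positions on mm10. Per the submitters' processing notes, TopHat2 2.0.14, Cufflinks 2.2.1, CASAVA 1.8.2, cutadapt 1.2.1 and Trim Galore were used, with no parameters stated there. PCR copies were not marked by molecular identifiers, so amplification adds to the spread between cells, and low values are the least certain.

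From these values log2(FPKM + 1) was taken, with the highest entry where a symbol had several, and 98 control entries were left out. Stages came from the labels. Means, SDs and differences over cells were calculated in Python 3.11.15 with pandas 2.3.3, numpy 2.4.6 and scipy 1.17.1, and figures with matplotlib 3.10.9. The script was tested on simulated data. No p-value was calculated, since each stage is 1 sample. Depth was read from the spacing of low FPKM values of single-exon genes, and since the values are not counts, no count model was used.

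Named genes were the 12 highest and 12 lowest by the smaller within-range difference, up to 6 members of each of the 31 gene lists with the largest difference, and a set of lineage genes. Top2a, Tuba1a, Tuba1c and Tubb5 fall outside this rule and were chosen after their values were seen, as were cells named singly. Members and lists were chosen with earlier results of these data known. Promoters came from RefSeq on GRCm38.p6 and covered 250 bases before to 50 after the start. No genome sequence was read by coordinates. Alternatives changed the pseudocount, filter, scaling, summary, cell ranges and libraries. Some named genes are not reported here.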

Additional observations from a re-analysis of the deposited data

Results flagged for a closer look

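For 97 measures in the 9 Precursor cells, the lists' mean levels and the genes named, the gap between the extreme cell and its nearest neighbour was divided by the range over the cells, and 25 exceeded Dixon's 95% critical value. For normally distributed values chance alone picks about 1 in 20 groups. That rate need not hold here, since many of these genes are at 0 in most Precursor cells. All values are log2(FPKM + 1), and none of the causes was tested.

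The cell D179, the Precursor library with S100a9, stood apart for S100a9 (7.45), S100a8 (7.30), the neutrophil list (mean 3.90) and the macrophage and leukocyte list (mean 2.21). It was also highest for Fos (2.44), Phgdh (1.39), Rrm2 (1.11) and Skp2 (0.12), all at low levels. D383 was low for the growth cone list (mean 1.64, others 3.75 to 5.33), Lhx2 (4.37), Elavl3 (2.62) and Nrep (1.25) and high for Ccnd1 (8.22) and Pax6 (5.43). D242, alone in its number range, was high for the sustentacular list (mean 6.09), Omp (8.57), Krt18 (6.82) and Ccnh (5.53). D178 was high for Celf2 (8.99) and Meis2 (6.75), D345 for Gmnn (6.11) and Mthfd2 (4.85), D319 for Idh2 (7.22) and D195 for Sox2 (3.81). D374 was low for Emc6 (1.01).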

How the results depend on the processing

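Counts depended most on how low values enter, and are given as percentages of the genes measured under each setting. The reported shares at least 2 higher and lower were 4.65% and 5.46% over all cells, 8.75% and 13.3% within D316 to D434, and 3.70% in the same direction in both ranges. With a pseudocount of 0.1 they were, in that order, 11.2%, 15.2%, 15.4%, 22.6% and 10.2% (486, 655, 665, 976 and 441 genes). With a pseudocount of 10 they were 0.370%, 0.324%, 1.25%, 1.74% and 0.185% (16, 14, 54, 75 and 8 genes). With the median over cells in place of the mean they were 16.5%, 17.5%, 14.9%, 21.5% and 8.93% (715, 756, 643, 929 and 386 genes), and the mitosis median was -4.03. Without a filter on low values 8.19% (1053 genes) were lower within D316 to D434, and with detection at an FPKM of at least 10, an alternative chosen after seeing the data, 13.9% (350 of fewer genes measured). Single ranges gave 14.9% and 8.26% (D168 to D205) or 8.75% and 13.3% (D316 to D434). Without the 9 libraries with S100a9, 7.10% were higher and 14.7% (772 genes) lower, so 32.6% of the counted genes were higher against 46.0% in all cells, and the progenitor factor median was 0.048. The cause was not tested.

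Of 51 named genes with a difference of at least 2, 48 kept their direction within D316 to D434 and 30 also the size. The exceptions in direction were S100a8 and S100a9 at 0 and Fabp7 at 2.08. Without the 9 libraries Fabp7 was at 1.30 and Cbr2 at 1.26. Rescaling to the same nuclear sum or, chosen after seeing the data, to size factors kept the direction of all 71 named genes.

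Leaving out each cell in turn gave 7.94% to 12.04% higher and 12.1% to 19.6% lower within D316 to D434, the highest without D383 and without D337, and a progenitor factor median of -0.80 to 0.28. The shares over all cells and in both ranges stayed within 1.5 times of the reported counts. No paired analysis was possible because no cell number occurs in both stages, and no test between stages was made. With 11 and 9 cells and no animals named, a gene at 0 in a cell was not detected at this depth and is not shown to be absent.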

Other observations

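Several further gene groups were compared in the same way. Of 30 replication-linked chromatin genes 26 were measured, 21 lower in Precursor cells with a median difference of -0.47. Of the 26, 4 were measured through Progenitor cells alone. Within D316 to D434 17 were lower and 9 higher, with a median of -0.19 (-0.31 within D168 to D205). Of 28 ribosome biogenesis genes 14 were measured, 10 lower (median -0.48), 5 of the 14 through Progenitor cells alone. This did not hold within D316 to D434, where 7 were lower and 7 higher, with a median of -0.08 (-0.68 within D168 to D205). Chaperones and genes of the unfolded protein response had 9 of 13 measured members higher (median 0.56), led by Xbp1, the transcription factor of that response, at 2.39, with 1.02 within D168 to D205 and 3.0 within D316 to D434. Without the 9 libraries with S100a9 that median was -0.26, and over all 22 genes of the list it was 0.08. Of the 20 Notch pathway genes 5 were measured and all 5 were higher (median 0.79), 2 of them measured through Precursor cells alone, with 3 of the 5 higher within D316 to D434. Over all 20 the median was -0.03, with 9 higher and 10 lower. The 9 measured of 17 cell cycle exit genes had a median of -0.17, with -1.09 and 0.58 within the ranges.

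Genes of odorant transduction and mature neurons were higher for 7 of 7 measured of 24 (median 0.83), 6 of them measured through Precursor cells alone, and within D316 to D434 for 3 of 7. Of BAF chromatin remodeling subunits, the 9 measured of dividing cells had 5 higher and 4 lower, and none of the 5 neuronal subunits was measured. The 18 measured housekeeping genes had a median of 0.09, with 10 higher and 8 lower. Among 30 epithelial adhesion and keratin genes, 12 were measured and 6 were higher, and the median of 0.41 became -0.85 within D316 to D434.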
